A study of Mus musculus with 24 samples.

Results

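Foxo1, Ikzf1, Ikzf3, Spib, Pou2af1, Irf4, Irf8, Bach2, Bcl6 and Runx1 code for transcription regulators that act with EBF1 and PAX5 in the B lineage. These 10 genes were taken by symbol from an exon count table of 24506 mouse genes, and their values were read in all 7 groups that the table holds. All 10 passed the filter on low counts, as did 14550 genes in all. The cells were cultured from fetal liver of C57BL6/J mice on the stromal line OP9, in medium that held IL-7 and the ligands of KIT and FLT3. They were wild type, deficient for Ebf1 (Ebf1-KO) or deficient for Pax5 (Pax5-KO), and each carried the retroviral vector pMiG. Wild type cells carried the empty vector, and each deficient genotype carried the empty vector, an Ebf1 vector or a Pax5 vector, which makes 7 groups of 2 libraries. How transduced cells were selected is not given in the sources used here, nor are ages. Every group named without a gene after it carried the empty vector. EBF1 binding came from chromatin immunoprecipitation in another cell, the Abelson-transformed mouse pre-B line 230-238, as 1 list of 17230 peaks.

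EBF1 and PAX5 specify the B lineage and hold cells in it, and they work with a wider set of regulators. FOXO1, a forkhead factor downstream of PI3K and AKT, switches on recombination and IL-7 receptor genes in pro-B cells, and the coactivator OCA-B, the product of Pou2af1, binds octamer factors on B cell promoters. IKAROS (Ikzf1) and AIOLOS (Ikzf3) are zinc finger factors that restrain proliferation as pre-B cells mature. SPI-B is an Ets factor close to PU.1, IRF4 and IRF8 bind DNA together with PU.1 or SPI-B, BACH2 and BCL6 are repressors, and RUNX1 acts with its partner CBFb from the stem cell onwards.

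Libraries held 16.1 to 42.1 M (mega) exon counts. Levels are TMM-scaled counts per M (CPM), and within each sentence of levels the values for a group are those of replicates 1 and 2. Differences are log2 fold changes ± standard error from edgeR's quasi-likelihood test, and a gene is said to rise or fall only at an adjusted p (Benjamini-Hochberg, over all genes tested) under 0.05. Separate cultures are not named for the replicates in the labels, so p-values measure the spread between these libraries, which may be technical. The 2 libraries of Pax5-KO with Ebf1 were the least alike: their log2 CPM had a correlation of 0.895, against 0.934 to 0.971 in the other groups. This value cannot tell which of the 2 differs. Replicate 1 is called the library that stood apart, by the number of genes called. Set alone against Pax5-KO with the empty vector, it gave 2228 genes called, where its replicate alone gave 484. The exon counts were 32.4% of its total reads and 65.4% of those of its replicate, and 28.5% to 60.4% in the other 12 libraries. By this share replicate 2 lay outside that range, and replicate 1 within it. Replicate 1 had the lower share in every deficient group, and the higher share in wild type (36.7% against 28.5%). Results for Pax5-KO with Ebf1 are therefore also given without the library that stood apart. Ebf1 read 966 and 1102 CPM in wild type and only 244 and 282 in Ebf1-KO, which became 857 and 893 under the Ebf1 vector. It read 315 and 241 in Pax5-KO, and 1644 and 1483 under that vector. The labels do not name the deleted part of Ebf1, so the reads left in Ebf1-KO check nothing. Pax5 read 412 and 333 CPM in wild type but 2.24 and 2.49 in Ebf1-KO, where the Ebf1 vector gave 37.2 and 33.1 and the Pax5 vector 429 and 399. It read 20.1 and 12.3 in Pax5-KO, and 746 and 439.6 once the Pax5 vector was added. Exon counts do not part vector from endogenous transcripts.

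The summed level of 8 B lineage markers was 3379 to 4122 CPM in wild type, 581 to 586 in Ebf1-KO, 1122 to 1241 in Pax5-KO and 2995 to 3091 in Pax5-KO with Pax5. The label pro-B therefore holds by these markers for wild type cells. Set against these cells, Ebf1-KO had 7 of the 8 lower and 1 higher, and Pax5-KO had 6 lower and 1 higher. Of all tested genes, 6.65% and 5% were lower in these genotypes, and 8.02% and 8.65% were higher. A sum of 8 myeloid markers was 24.7 to 28.7 CPM in wild type, 699 to 704 in Ebf1-KO and 443 to 578 in Pax5-KO. A sum of 8 dendritic markers was 17.5 to 19.9, 1393 to 1632 and 929.7 to 1174 CPM in the same groups, with Clec9a, a marker of conventional dendritic cells, at 0 in both wild type libraries and at 0.686 and 0.932 in Ebf1-KO, and Zbtb46, another, at 0 and 0.345 in Ebf1-KO. Most of the dendritic sum in Ebf1-KO came from Ccr9 (789 and 959.9 CPM), Flt3 (356 and 399) and Bst2 (199.9 and 221). Of the 8 myeloid markers 8 were higher in Ebf1-KO and 6 in Pax5-KO, and of the 8 dendritic markers 5 and 6, where 8.02% and 8.65% of all tested genes were higher. Summed T lineage markers stood at 8.58 to 10.5 CPM in wild type, 249 to 287 in Ebf1-KO and 317 to 357 in Pax5-KO. Sums of NK and innate lymphoid markers were 2.54 to 5.38, 191 to 224 and 296 to 341 CPM in these groups, those of plasma cell markers 78.9 to 126, 432 to 448 and 1437 to 1746, and those of stromal markers 0.915 to 2.12, 62.7 to 72.1 and 8.63 to 13.7. Most of the stromal sum in Ebf1-KO came from Pdgfrb (58.1 to 63.3 CPM), with Sparc at 4.30 to 7.98 and Col1a1 at 0.242 to 0.320. Most of the plasma cell sum in Pax5-KO came from Jchain (1203 to 1488 CPM), with Xbp1 at 208 to 233 and Prdm1 at 0.0877 to 1.85. In bulk RNA, fewer cells of a type and less RNA per cell cannot be told apart, and the part of these markers in the results below was not tested.

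Most of the 10 factors were lower without EBF1 or PAX5. Against wild type, 6 of 10 fell in Ebf1-KO (Pou2af1, Ikzf3, Foxo1, Bach2, Irf4 and Spib) and 0 rose, where 14.7% of all tested genes were called in either direction (8.02% higher and 6.65% lower). In Pax5-KO 7 of 10 fell, the same 6 and Irf8, and 0 rose, where 13.6% of all genes were called (8.65% higher and 5% lower). The median log2 fold change of the 10 was -3.01 in Ebf1-KO and -2.40 in Pax5-KO, against 0.03 and 0.04 over all genes. Both comparisons use the same wild type libraries. Ikzf1, Bcl6 and Runx1 passed in neither.

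**Figure D1:**
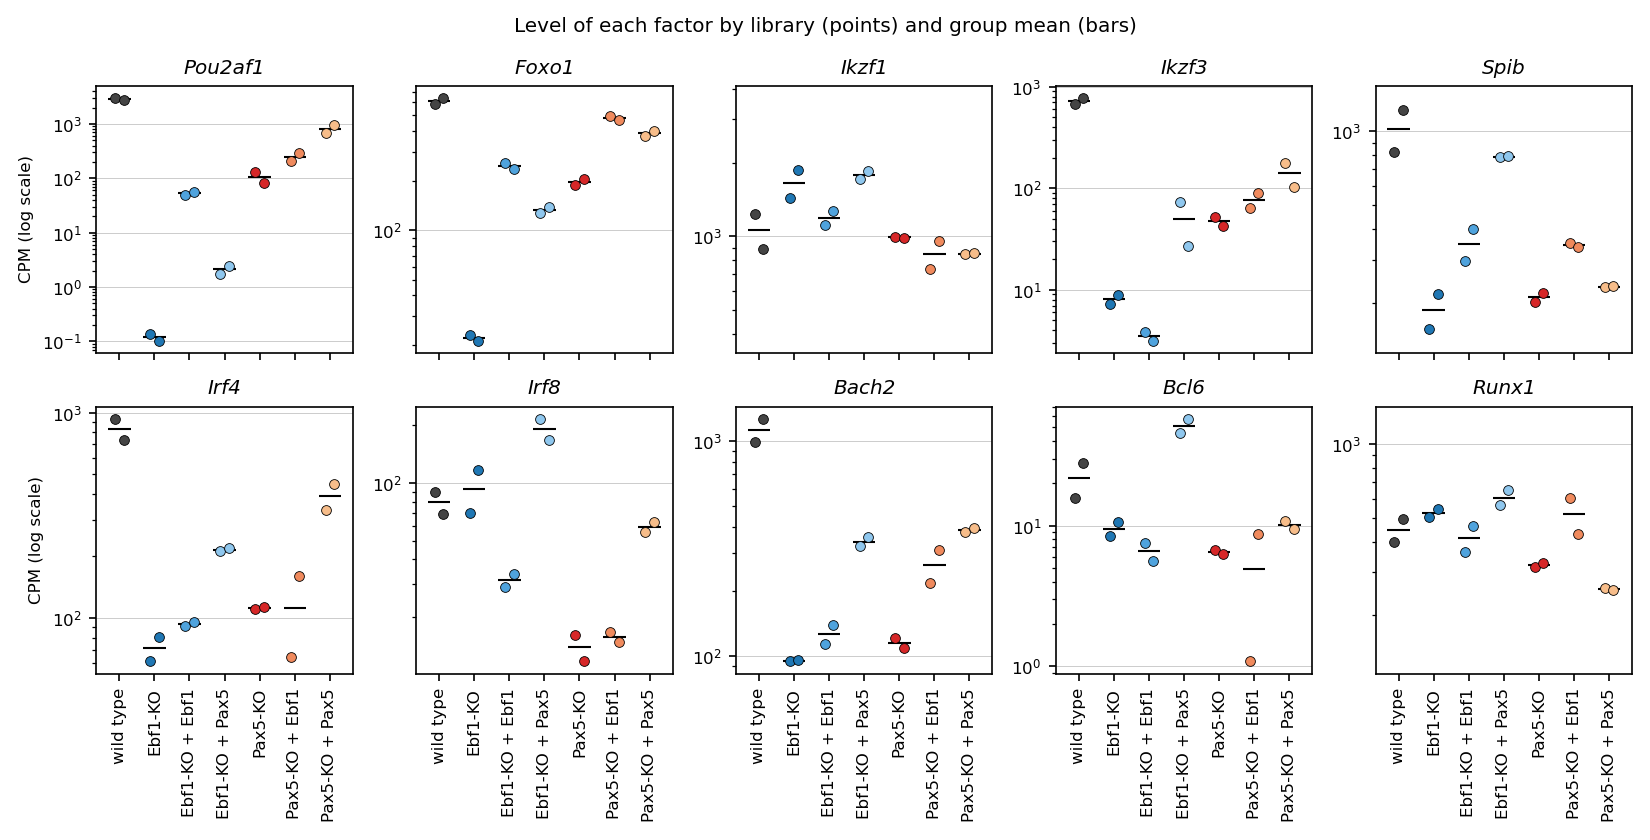
CPM of each factor (vertical, log scale, a scale for each panel) in the 14 libraries, as 2 points a group from left (replicate 1) to right (replicate 2), with bars at group means. Pou2af1 runs from 0.104 to 2979.9 CPM, while Ikzf1 and Runx1 stay within 2.11-fold and 2.37-fold between their lowest and highest group means.

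Wild type cells had the most Pou2af1 per transcript length, at 1129.8 ± 49.0 CPM per kb (SD, n = 2), followed by Spib at 369 ± 102. Ikzf1 (195 ± 45.5), Ikzf3 (177 ± 17.5) and Irf4 (175 ± 29.5) did not differ in this order beyond their spread, and Bach2 (133 ± 22.8) and Foxo1 (110.5 ± 6.41) came next. Runx1 (62.9 ± 9.69), Irf8 (23.5 ± 4.21) and Bcl6 (6.23 ± 2.45) were lowest. In Ebf1-KO the order on this scale turned: Ikzf1 led at 303 ± 56.2 CPM per kb, Runx1 (73.7 ± 3.70) and Spib (67.0 ± 15.3) followed within their spread of each other, and Pou2af1 was last at 0.0471 ± 0.00931. With Pax5 in Pax5-KO cells Pou2af1 was first again, at 317 ± 72.3 CPM per kb.

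Pou2af1 (NM_011136, chromosome 9, 51213690 to 51240079, plus strand, mm10) had the widest range of the 10. It read 2979.9 and 2803 CPM in wild type and 0.137 and 0.104 in Ebf1-KO, which is 3 reads in each library. With Ebf1 in Ebf1-KO cells it read 49.1 and 57.0, and with Pax5 1.77 and 2.43. Both wild type libraries lay far above all others, and no 2 groups within the Ebf1-KO background overlapped. Such separation is common: in the tested comparisons of 2 groups, here and below, 42.1% to 59.6% of all tested genes did not overlap. By counts, wild type exceeded Ebf1-KO by a ratio of 24520 (95% counting interval 11270 to 66830), the Ebf1 vector exceeded the empty vector by 458 (210.1 to 1248) and the Pax5 vector by 18.2 (8.09 to 50.5). These intervals cover counting error only, and the fitted log2 fold changes of Pou2af1 against Ebf1-KO depend on the prior count. Those were -14.52 ± 0.48 for Ebf1-KO against wild type (adjusted p = 1.19e-10), 8.75 ± 0.43 for the Ebf1 vector (1.3e-08) and 4.11 ± 0.49 for the Pax5 vector (0.000167, edgeR).

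In Pax5-KO cells Pou2af1 read 131 and 83.2 CPM, with Ebf1 205 and 298, and with Pax5 681 and 942. The 3 groups did not overlap, and the Pax5 libraries were the highest. Against wild type the empty-vector cells fell by 4.75 on the log2 scale (SE 0.30, adjusted p = 6.89e-08, edgeR). The Ebf1 vector raised Pou2af1 by 1.23 ± 0.26 (adjusted p = 0.0163), or 1.47 without the library that stood apart (adjusted p = 0.00681), but without Pax5-KO replicate 2 the value was 0.94 (adjusted p = 0.201). Restoring Pax5 raised it by 2.92 ± 0.27 (adjusted p = 1.75e-05, edgeR) to 28.1% of the wild type mean.

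By the gene models of the count table, Pou2af1 was the only gene of the 10 with an EBF1 peak within 1 kb of its start. The peak (chr9:51213125-51213445, findPeaks score 121, rank 1840 of the list, 23.7-fold over control by the authors' values) has its centre 0.4 kb before the start, and 17.0% of all genes have a peak within 1 kb of their start. The RefSeq promoter window (GRCm38.p6) meets only the edge of this peak. It is shown because the gene responded most to Ebf1 in Ebf1-KO cells. The run covers the 250 bases before the start (chr9:51213440-51213689, plus strand), with the 6 bases under the peak in capitals:
Pou2af1 promoter: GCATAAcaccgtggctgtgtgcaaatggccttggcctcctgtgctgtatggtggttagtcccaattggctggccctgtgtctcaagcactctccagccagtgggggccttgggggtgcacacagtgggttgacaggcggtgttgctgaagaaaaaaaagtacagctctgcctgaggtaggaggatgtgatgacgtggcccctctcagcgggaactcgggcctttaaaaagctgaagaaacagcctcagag

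Foxo1 (NM_019739, chromosome 3, 52268337 to 52350109, plus strand, mm10) followed Pou2af1 in kind. It read 588 and 638 CPM in wild type libraries. In Ebf1-KO cells it stood at 23.0 and 21.3, under the Ebf1 vector at 258 and 236, and under the Pax5 vector at 127 and 138. The 4 groups stood apart from one another, with the Ebf1 libraries above the Pax5 libraries in Ebf1-KO cells. Foxo1 fell by 4.79 on the log2 scale in Ebf1-KO (SE 0.20, adjusted p = 5.43e-10), and rose by 3.48 ± 0.18 with Ebf1 (adjusted p = 2.12e-08) and by 2.58 ± 0.18 with Pax5 (adjusted p = 1.96e-06, edgeR). The means came to 40.3% and 21.7% of wild type.

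In Pax5-KO cells Foxo1 read 190 and 204 CPM, with Ebf1 498 and 471, and with Pax5 376 and 404. Again no groups overlapped, and both vectors lay above the empty vector. Foxo1 was lower in Pax5-KO than in wild type (-1.64 ± 0.17, adjusted p = 9.66e-06), and higher in Pax5-KO than in Ebf1-KO (3.15 ± 0.18, adjusted p = 4.83e-08). It rose with Ebf1 (1.30 ± 0.17, adjusted p = 0.000962, and 1.26 without the library that stood apart, adjusted p = 0.0026) and with Pax5 (0.99 ± 0.17, adjusted p = 0.00303; 0.91 and adjusted p = 0.0596 without Pax5-KO with Pax5 replicate 2).

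Of the RefSeq promoters found for 9 of the 10 genes, that of Foxo1 was the one whose window of 300 bases holds the EBF1 palindrome (TCCC, any 2 bases, GGGA). That motif was searched on both strands and occurs in 0.9% of 32851 promoter windows. No peak of the 230-238 list lies in that window. The 250 bases before the start (chr3:52268087-52268336, plus strand) are shown with the motif, which begins 92 bases before the start, in capitals:
Foxo1 promoter: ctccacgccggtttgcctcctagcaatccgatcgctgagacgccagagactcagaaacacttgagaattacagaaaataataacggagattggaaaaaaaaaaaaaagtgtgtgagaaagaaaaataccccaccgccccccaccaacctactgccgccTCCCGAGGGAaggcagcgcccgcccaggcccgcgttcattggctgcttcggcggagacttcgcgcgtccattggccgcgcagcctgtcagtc

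The Ikaros family members differed from each other. Ikzf1 (NM_001025597, chromosome 11, 11685925 to 11772926, plus strand, mm10) read 1236 and 886 CPM in wild type libraries. Ebf1-deficient cells had 1430.2 and 1863, after Ebf1 was added 1114 and 1265, and after Pax5 was added 1719 and 1850.5. The Pax5-KO libraries gave 995 and 987, those given the Ebf1 vector 739 and 955, and those given the Pax5 vector 848 and 853. Ebf1-KO libraries lay above wild type, and Pax5-KO libraries lay between the wild type values. The difference in Ebf1-KO was 0.63 ± 0.21 and did not pass (adjusted p = 0.0588, edgeR), but passed without wild type replicate 1 (0.90, adjusted p = 0.0395), without Ebf1-KO replicate 1 (0.83, adjusted p = 0.0448), without the filter (adjusted p = 0.0438) and in DESeq2 (adjusted p = 0.0147).

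Ikzf3 (NM_011771, chromosome 11, 98464693 to 98546031, minus strand, mm10) read 672 and 773 CPM in wild type libraries. The Ebf1-KO libraries gave 7.23 and 8.98, those given the Ebf1 vector 3.81 and 3.17, and those given the Pax5 vector 73.3 and 27.1. Wild type stood far above the rest, the Ebf1 libraries were the lowest of all, and the Pax5 libraries were higher than both but uneven. Ikzf3 fell by 6.47 on the log2 scale in Ebf1-KO (SE 0.47, adjusted p = 2e-07) and rose by 2.63 ± 0.40 with Pax5 (adjusted p = 0.00127, edgeR). Ebf1 gave -1.23 ± 0.40, which did not pass in edgeR (adjusted p = 0.172) and passed in DESeq2 (adjusted p = 0.0313) and without the filter (adjusted p = 0.000575).

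Pax5-KO cells had 52.2 and 42.5 CPM of Ikzf3, 64.4 and 89.3 with Ebf1 and 178 and 104 with Pax5. Each vector group lay above the empty vector, and the Pax5 libraries were highest. Ikzf3 was lower than wild type in Pax5-KO (-3.93 ± 0.41, adjusted p = 9.51e-06) and rose with Pax5 (1.57 ± 0.37, adjusted p = 0.0268, edgeR). This rise did not pass without Pax5-KO replicate 1 (adjusted p = 0.0961), without Pax5-KO replicate 2 (adjusted p = 0.263) or without Pax5-KO with Pax5 replicate 1 (adjusted p = 0.253). With Pax5 restored the mean was 19.5% of wild type, and with Pax5 in Ebf1-KO cells 6.95%.

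Spib (NM_019866, chromosome 7, 44525995 to 44532071, minus strand, mm10) read 826 and 1227 CPM in wild type libraries. In Ebf1-KO cells it stood at 156 and 216, under the Ebf1 vector at 295 and 399.7, and under the Pax5 vector at 783 and 792. The 4 groups did not overlap, and the Pax5 libraries came close below wild type, at 76.7% of its mean. Spib fell by 2.46 in Ebf1-KO (SE 0.24, adjusted p = 3.72e-06) and rose by 2.08 ± 0.23 with Pax5 (adjusted p = 0.00011, edgeR). With Ebf1 it rose by 0.90 ± 0.23 (adjusted p = 0.0459), a call that was lost on leaving out Ebf1-KO replicate 1 (adjusted p = 0.599) or 2 (0.0562) or Ebf1-KO with Ebf1 replicate 1 (0.0513) or 2 (0.562).

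In Pax5-KO cells the picture for Spib was another: 201 and 219 CPM with the empty vector, 350.1 and 337 with Ebf1 and 231 and 233 with Pax5. The Ebf1 libraries were the highest here, and the Pax5 libraries lay just above the empty vector. Pax5 gave 0.15 ± 0.22 (adjusted p = 0.872), so Spib stayed at 22.6% of the wild type mean where Pax5 was restored. Ebf1 gave 0.71 ± 0.23, which did not pass in edgeR (adjusted p = 0.0984, and 0.19 without the library that stood apart) but passed in DESeq2 (adjusted p = 0.0256).

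Irf4 (NM_013674, chromosome 13, 30749233 to 30766981, plus strand, mm10) read 929 and 731 CPM in wild type libraries. Ebf1-deficient cells had 61.3 and 80.6, after Ebf1 was added 91.3 and 95.0, and after Pax5 was added 211 and 219. Wild type was highest, and the Pax5 libraries lay above those with Ebf1. Irf4 fell by 3.55 in Ebf1-KO (SE 0.35, adjusted p = 4.47e-06), gave 0.39 ± 0.32 with Ebf1 (adjusted p = 0.847) and rose by 1.60 ± 0.32 with Pax5 (adjusted p = 0.0108, edgeR). The last call was lost when Ebf1-KO replicate 1 was left out (adjusted p = 0.162), or replicate 2 of Ebf1-KO with Pax5 (0.0555).

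In Pax5-KO cells Irf4 read 110.2 and 113 CPM, with Ebf1 64.1 and 160.2, and with Pax5 335 and 449. The Ebf1 libraries lay on either side of the empty vector, and both Pax5 libraries lay above all of these. Irf4 was lower than wild type in Pax5-KO (-2.90 ± 0.34, adjusted p = 2.95e-05) and rose with Pax5 (1.81 ± 0.32, adjusted p = 0.00431, edgeR), though not without Pax5-KO replicate 2 (adjusted p = 0.0563) or Pax5-KO with Pax5 replicate 2 (0.0533). With Ebf1 the value was 0.01 ± 0.32 (adjusted p = 1). It turned to -0.81 (adjusted p = 0.0496) when only the library that stood apart was kept, and was 0.52 (adjusted p = 0.271) without that library.

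Irf8 (NM_001301811, chromosome 8, 120738639 to 120756692, plus strand, mm10), which myeloid and dendritic cells also use, did not follow Irf4. It read 89.3 and 69.3 CPM in wild type libraries. The Ebf1-KO libraries gave 70.1 and 116, those given the Ebf1 vector 28.8 and 33.6, and those given the Pax5 vector 215 and 167. Wild type and Ebf1-KO overlapped, the Ebf1 libraries lay below both and the Pax5 libraries above both. Irf8 gave 0.23 ± 0.27 in Ebf1-KO (adjusted p = 0.665) and fell by 1.58 with Ebf1 (SE 0.28, adjusted p = 0.00447, edgeR). That call was lost when Ebf1-KO replicate 2 was left out (-1.15, adjusted p = 0.1), or replicate 1 of Ebf1-KO with Ebf1 (-1.47, adjusted p = 0.0761). With Pax5 it gave 1.03 ± 0.28, just short of the threshold (adjusted p = 0.0506), and passed with RLE scaling (0.0442), without the filter (0.0152), in DESeq2 (0.00651) and without Ebf1-KO replicate 2 (0.0407). In these cells the sum of myeloid markers went from 699 to 704 CPM with the empty vector to 358 to 365 with Ebf1 and 648 to 673 with Pax5. The dendritic sum went from 1393 to 1632 CPM to 695 to 696 and 799 to 1087. The NK and innate lymphoid sum moved the same way as Irf8, from 191 to 224 CPM to 38.2 to 45.2 with Ebf1 and 344 to 353 with Pax5, and the part of such cells in the Irf8 values was not tested.

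In Pax5-KO cells Irf8 read 16.2 and 11.8 CPM, with Ebf1 16.8 and 15.0, and with Pax5 55.8 and 62.5. The first 2 groups overlapped and the Pax5 libraries stood well above them. Irf8 was lower than wild type in Pax5-KO (-2.51 ± 0.29, adjusted p = 2.88e-05), lower there than in Ebf1-KO (-2.74 ± 0.29, adjusted p = 3.68e-05) and rose with Pax5 (2.08 ± 0.29, adjusted p = 0.000573, edgeR) to 74.5% of wild type. While Irf8 rose with Pax5, the myeloid sum stood at 106 to 140.4 CPM and the dendritic sum at 138 to 155, below the 443 to 578 and 929.7 to 1174 of the empty vector. Unlike in Ebf1-KO cells, the NK and innate lymphoid sum moved against Irf8 here. It went from 296 to 341 CPM with the empty vector to 92.0 to 101 with Pax5.

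Bach2 (NM_001109661, chromosome 4, 32417435 to 32586108, plus strand, mm10) codes for a repressor that delays plasma cell fate. It read 995 and 1268 CPM in wild type libraries. In Ebf1-KO cells it stood at 94.1 and 95.3, under the Ebf1 vector at 114 and 139, and under the Pax5 vector at 323 and 356. The wild type libraries stood above all others, and Pax5 above Ebf1. Bach2 fell by 3.58 in Ebf1-KO (SE 0.23, adjusted p = 5.9e-08), gave 0.42 ± 0.20 with Ebf1 (adjusted p = 0.498) and rose by 1.84 ± 0.21 with Pax5 (adjusted p = 0.000125, edgeR). The gene overlaps the antisense gene Bach2os, and since no source used here says whether strand was counted, their reads cannot be told apart.

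Bach2 read 120.4 and 109 CPM in Pax5-KO, 219 and 309.6 under the Ebf1 vector and 378 and 395 under the Pax5 vector. The 3 groups did not overlap and the Pax5 libraries were highest. Bach2 was lower than wild type in Pax5-KO (-3.30 ± 0.22, adjusted p = 1.58e-07) and rose with Pax5 (1.75 ± 0.21, adjusted p = 0.000147, edgeR). With Ebf1 it rose by 1.21 ± 0.21 (adjusted p = 0.00531), or 1.44 without the library that stood apart (adjusted p = 0.00196), but did not pass without Pax5-KO replicate 2 (adjusted p = 0.0835).

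Bcl6 (NM_009744, chromosome 16, 23965050 to 23988852, minus strand, mm10), a repressor best known from germinal centre and late pre-B cells, was low throughout. It read 15.8 and 27.98 CPM in wild type libraries. Ebf1-deficient cells had 8.51 and 10.6, after Ebf1 was added 7.52 and 5.62, and after Pax5 was added 45.6 and 57.4. The Pax5-KO libraries gave 6.73 and 6.29, those given the Ebf1 vector 1.08 and 8.74, and those given the Pax5 vector 10.8 and 9.42. The libraries of Ebf1-KO with Pax5 were the highest of the 14, above wild type. The difference with Pax5 in Ebf1-KO was 2.43 ± 0.66 and did not pass in edgeR (adjusted p = 0.0537), but passed with RLE scaling (adjusted p = 0.0489), without the filter (0.000238) and in DESeq2 (0.00227). For Ebf1 in Pax5-KO the value was -0.38 ± 0.63 (adjusted p = 0.788). It was -2.59 (adjusted p = 0.00638) with only the library that stood apart kept, and 0.43 (adjusted p = 0.635) without it.

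Runx1 (NM_001111023, chromosome 16, 92601466 to 92697329, minus strand, mm10) read 399 and 496 CPM in wild type libraries. The Ebf1-KO libraries gave 505 and 543, those given the Ebf1 vector 362 and 464, and those given the Pax5 vector 562 and 649. The Pax5-KO libraries gave 316 and 327, those given the Ebf1 vector 605 and 432, and those given the Pax5 vector 259 and 254. Pax5-KO cells with Pax5 had the lowest values and lay below wild type, and the highest library was Ebf1-KO with Pax5. Runx1 gave 0.23 ± 0.21 in Ebf1-KO (adjusted p = 0.549) and -0.48 ± 0.21 in Pax5-KO (adjusted p = 0.153, edgeR). Its relative Runx2, a factor of bone and of plasmacytoid dendritic cells, moved far more, from 2.12 CPM in each wild type library to 519 and 683 in Ebf1-KO (8.14 ± 0.26, adjusted p = 1.19e-10) and 238 and 242 in Pax5-KO (6.82 ± 0.25, adjusted p = 5.78e-10).

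The vectors were then compared by how many of the factors responded, each against the empty-vector libraries that both share. In Ebf1-KO cells the Ebf1 vector raised 3 of 10 (Pou2af1, Foxo1 and Spib) and lowered Irf8, where 2.97% of all genes were called (2.21% higher and 0.763% lower). The number of factors called was 2 without Ebf1-KO replicate 2 or without Ebf1-KO with Ebf1 replicate 1. The Pax5 vector raised 6 of 10 in these cells (Pou2af1, Ikzf3, Foxo1, Spib, Bach2 and Irf4) and lowered 0, where 4.08% of all genes were called (3.15% higher and 0.935% lower). In Pax5-KO cells the Ebf1 vector raised 3 (Foxo1, Pou2af1 and Bach2) and lowered 0, where 3.6% of all genes were called (1.75% higher and 1.85% lower). With the replicate number as a block, 5 of the 10 were called, all higher, and 821 genes in all (382 higher and 439 lower). DESeq2 called 5 of the 10, all higher, with Spib (adjusted p = 0.0256) and Runx1 (0.0166) added. It called 1506 genes in all (695 higher and 811 lower), against 524 in edgeR. In edgeR, 1 was called without Pax5-KO replicate 2. With only the library that stood apart kept, 6 were called, 4 higher and 2 lower (Irf4 and Bcl6), and 2228 in place of 524 genes in all. Restored Pax5 raised 6 (Pou2af1, Irf8, Irf4, Bach2, Ikzf3 and Foxo1) and lowered 0, where 4.03% of all genes were called (1.64% higher and 2.4% lower). Median log2 fold changes of the 10 were 0.02, 1.96, 0.69 and 1.28 in these 4 comparisons, against medians from -0.04 to 0.01 over all genes.

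**Figure D2:**
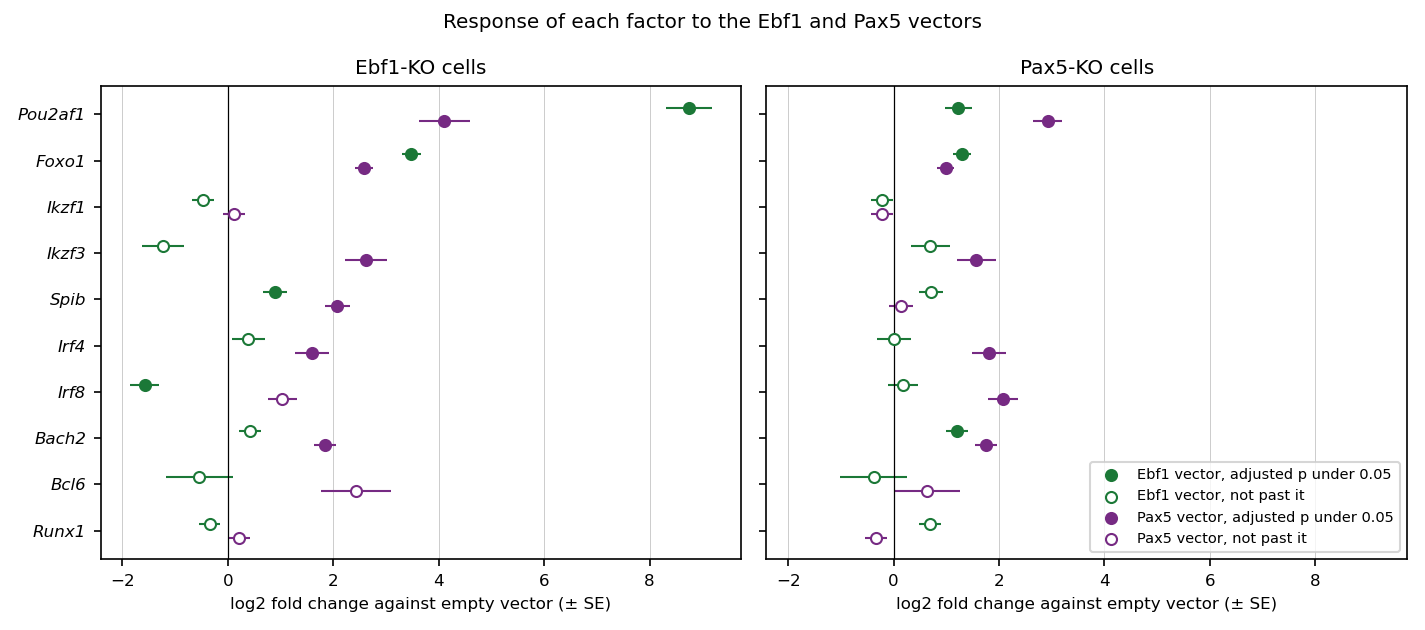
log2 fold change of each factor against the empty vector (horizontal, ± SE) for the Ebf1 vector (green) and the Pax5 vector (purple) in Ebf1-KO (left) and Pax5-KO cells (right), with filled points for an adjusted p under 0.05. In Ebf1-KO cells the Ebf1 point lies to the right of the Pax5 point for Pou2af1 and Foxo1, and to the left for the other 8.

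The libraries with Ebf1 and with Pax5 were set against each other directly, a comparison chosen after their values were seen. In Ebf1-KO cells 8 of 10 factors differed, where 10.2% of all genes were called (4.74% higher and 5.46% lower). Pou2af1 (4.65 ± 0.31, adjusted p = 7.97e-07) and Foxo1 (0.90 ± 0.17, adjusted p = 0.00309) were higher with Ebf1 than with Pax5. Lower with Ebf1 were Ikzf3 (-3.85 ± 0.42), Irf8 (-2.61 ± 0.29), Bach2 (-1.42 ± 0.21), Spib (-1.18 ± 0.23), Bcl6 (-2.97 ± 0.67) and Irf4 (-1.21 ± 0.32), with edgeR adjusted p from 3.76e-05 for Ikzf3 to 0.0255 for Irf4. The last 3 did not hold on leaving out Ebf1-KO with Ebf1 replicate 1, which left 5 called (adjusted p = 0.0733 for Spib, 0.0672 for Bcl6 and 0.152 for Irf4). Irf4 was also lost without any 1 of the other 3 libraries (0.0654 to 0.138), and Bcl6 without Ebf1-KO with Ebf1 replicate 2 (0.115) or Ebf1-KO with Pax5 replicate 2 (0.0501).

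In Pax5-KO cells 4 of 10 differed between the vectors, where 6.82% of all genes were called (3.64% higher and 3.18% lower). Pou2af1 (-1.69 ± 0.26, adjusted p = 0.00117), Irf4 (-1.80 ± 0.32, adjusted p = 0.00377) and Irf8 (-1.90 ± 0.29, adjusted p = 0.000996) were lower with Ebf1 than with Pax5. Runx1 was higher (1.02 ± 0.21, adjusted p = 0.00851, edgeR), but not without the library that stood apart (0.76, adjusted p = 0.0584), nor without Pax5-KO with Pax5 replicate 1 (0.0647) or 2 (0.0872). Pou2af1 thus stood higher with Ebf1 than with Pax5 in one background and lower in the other.

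Whether a vector acted unequally in the 2 backgrounds was tested as an interaction. For Ebf1, 2 of 10 factors passed, where 0.612% of all genes were called (0.0344% higher and 0.577% lower). The log2 fold change was lower in Pax5-KO than in Ebf1-KO for Pou2af1 (-7.52 ± 0.52, adjusted p = 1.3e-06) and Foxo1 (-2.18 ± 0.24, adjusted p = 0.000168, edgeR). Without the library that stood apart these were -7.28 (adjusted p = 1.34e-06) and -2.22 (adjusted p = 0.000458). The number of factors was 4 with only that library kept, with Irf8 (1.83, adjusted p = 0.0232) and Runx1 (1.25, adjusted p = 0.0254) added, and Irf8 also passed without Ebf1-KO replicate 1 (2.10, adjusted p = 0.0337). For Pax5, 2 of 10 passed, where 3.16% of all genes were called (0.735% higher and 2.43% lower): Spib (-1.93 ± 0.32, adjusted p = 0.0043) and Foxo1 (-1.60 ± 0.24, adjusted p = 0.0021, edgeR) had a lower log2 fold change in Pax5-KO than in Ebf1-KO. For Spib this rests on 783 and 792 CPM against 231 and 233 with the same vector, from like levels with the empty vector. In CPM the Ebf1 vector added more in Pax5-KO than in Ebf1-KO for Pou2af1 and Foxo1. Mean Pou2af1 went from 0.12 to 53.0 CPM in Ebf1-KO and from 107 to 251 in Pax5-KO. Mean Foxo1 went from 22.1 to 247 CPM and from 197 to 484.

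The deficient cells themselves were also compared. Of the 10 factors 3 were higher in Pax5-KO than in Ebf1-KO (Pou2af1 9.77 ± 0.44, Foxo1 3.15 ± 0.18 and Ikzf3 2.54 ± 0.39, the last with adjusted p = 0.000967) and Irf8 was lower, where 4.1% of all genes were called (2.94% higher and 1.15% lower). Spib, Irf4 and Bach2 gave 0.17 ± 0.22, 0.65 ± 0.32 and 0.28 ± 0.20 and did not pass (adjusted p = 0.881, 0.422 and 0.704, edgeR).

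**Figure D3:**
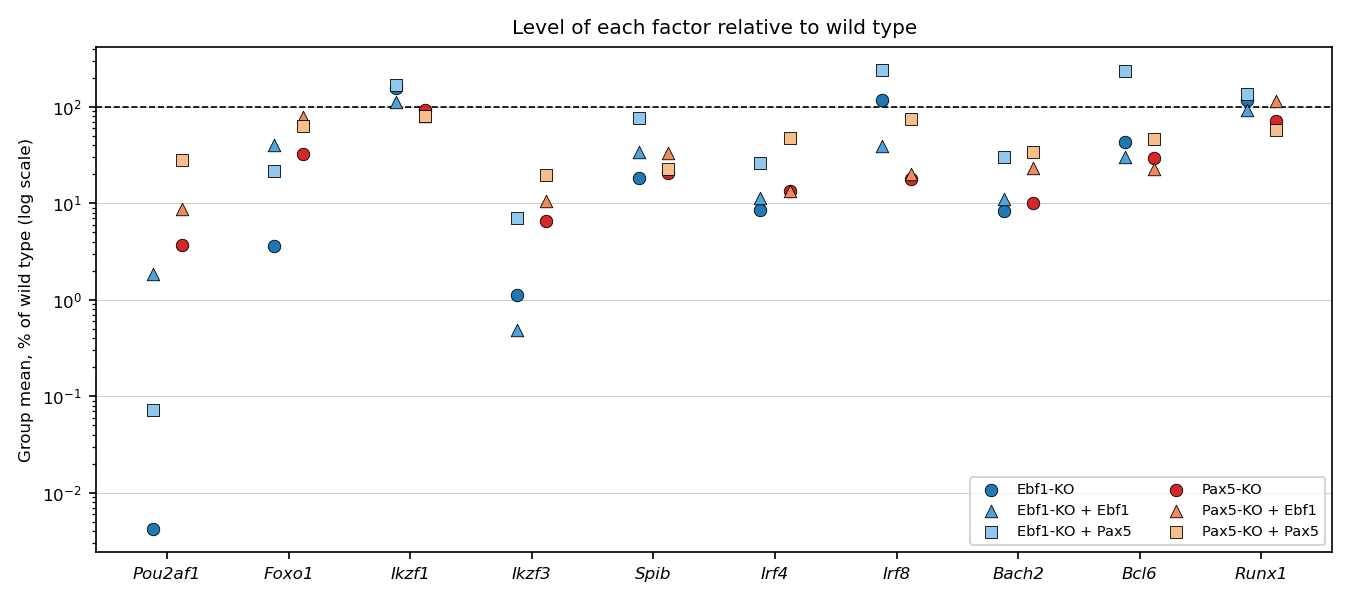
Group mean of each factor as a percentage of the wild type mean (vertical, log scale, dashed line at 100%), for Ebf1-KO (blue) and Pax5-KO (red and orange) with the empty vector (circles), Ebf1 (triangles) or Pax5 (squares). Foxo1 comes nearer the line than Pou2af1 or Ikzf3 in every group, and Ikzf3 with Ebf1 in Ebf1-KO lies at 0.483%.

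Cells given back the deleted factor were compared with wild type. Ebf1-KO cells with Ebf1 were lower than wild type for 7 of 10, where 11.2% of all genes were called (6.94% higher and 4.22% lower). Their Foxo1 was 1.31 lower on the log2 scale (-1.31 ± 0.17, adjusted p = 0.000101), Pou2af1 gave -5.77 ± 0.31, Ikzf3 -7.70 ± 0.50, Irf4 -3.16 ± 0.34, Bach2 -3.16 ± 0.22 and Spib -1.56 ± 0.23, with edgeR adjusted p of at most 0.000316. Irf8 gave -1.35 ± 0.28 (adjusted p = 0.00505), and did not pass without Ebf1-KO with Ebf1 replicate 1 (-1.23, adjusted p = 0.0694). In these cells Pax5 stood at 37.2 and 33.1 CPM, below the 412 and 333 of wild type.

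Pax5-KO cells with Pax5 were lower than wild type for 6 of 10 factors, where 7.13% of all genes were called (4.82% higher and 2.31% lower), and for 4 or 5 when any 1 of the 4 libraries was left out. One of the 6, Runx1, had not passed in Pax5-KO itself. Ikzf3 (-2.36 ± 0.38, adjusted p = 0.00125), Spib (-2.14 ± 0.23, adjusted p = 4.2e-05), Pou2af1 (-1.83 ± 0.26, adjusted p = 0.000435) and Bach2 (-1.55 ± 0.21, adjusted p = 0.000263, edgeR) held in all settings run. Foxo1 (-0.65 ± 0.17, adjusted p = 0.028) did not pass on leaving out wild type replicate 1 (0.0843) or 2 (0.229) or Pax5-KO with Pax5 replicate 1 (0.176) or 2 (0.157), and Runx1 (-0.80 ± 0.21, adjusted p = 0.0285) was lost without wild type replicate 2 (0.285) or Pax5-KO with Pax5 replicate 1 (0.124) or 2 (0.203). Irf4 gave -1.08 ± 0.32 (adjusted p = 0.0543) and Irf8 -0.42 ± 0.27 (adjusted p = 0.427), both short of the threshold. Irf4 passed with RLE scaling (0.0353), without the filter (0.000156) and in DESeq2 (0.00481). At the same time Pax5 itself read 746 and 439.6 CPM, above wild type.

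Known target genes of the factors were read from a list of 24, of which 23 were tested. The list pools genes that BCL6 and BACH2 repress with targets of the other factors, for which it gives no direction of action. In Ebf1-KO against wild type 12 were lower and 2 higher, with a median of -1.99, and in Pax5-KO 10 were lower and 1 higher, with a median of -1.35, against 0.03 and 0.04 over all genes. Of all genes 6.65% and 5% were lower. Of 8 FOXO1 targets 5 were lower in each. With Pax5 in Ebf1-KO 3 were higher and 1 lower, where 3.15% of all genes were higher and 0.935% lower. The lower one was Il7r, the IL-7 receptor gene, which stood at 209.9 and 221 CPM with the empty vector and 98.9 and 89.8 after Pax5 was added, against 289.8 and 306 in the wild type cells (-1.19 ± 0.20, adjusted p = 0.00312, edgeR). Rag1, a recombinase subunit, read 854 and 1184 CPM in wild type libraries. In Ebf1-KO cells it stood at 21.6 and 23.2, under the Ebf1 vector at 530.1 and 521, and under the Pax5 vector at 141 and 165. These 4 groups stood in the same order as for Foxo1. In Pax5-KO cells Rag1 read 379 and 472 CPM with Ebf1 and 511 and 548.5 with Pax5. There Foxo1 did not pass between the vectors (0.31 ± 0.17, adjusted p = 0.283, edgeR), so no contrast of the 2 genes is drawn. Rag1 fell by 5.51 in Ebf1-KO (SE 0.25, adjusted p = 1.62e-09) and rose by 4.55 ± 0.24 with Ebf1 and 2.77 ± 0.22 with Pax5 (adjusted p = 2.12e-08 and 4.91e-06, edgeR).

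Of 4 targets of OCA-B and SPI-B, 3 were lower in each deficient genotype, where 6.65% (Ebf1-KO) and 5% (Pax5-KO) of all genes were lower. Cd79b, a chain that signals for the antigen receptor, read 571 and 456 CPM in wild type libraries. Ebf1-deficient cells had 3.11 and 3.94, after Ebf1 was added 123 and 129, and after Pax5 was added 32.6 and 32.1, and these groups did not overlap. Cd22, an inhibitory receptor, gave -4.08 ± 0.73 in Ebf1-KO and -5.12 ± 0.77 in Pax5-KO, and rose by 4.63 ± 0.75 with Pax5 in Pax5-KO (adjusted p = 0.00206, edgeR). Of 4 IKAROS targets 3 were lower in Ebf1-KO, where 6.65% of all genes were lower. Whether IKAROS activates or represses these genes was not tested. Igll1, a surrogate light chain gene, read 1047 and 822 CPM in wild type and 0.32 and 0.414 in Ebf1-KO. With Ebf1 it read 852 and 867, with Pax5 0.345 and 4.89.

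Of 3 targets of IRF4 and IRF8, which include Ikzf3, 2 rose with Pax5 in Ebf1-KO cells, where 3.15% of all genes rose. Ciita, the activator of MHC class II genes, read 0.155 and 0 CPM in wild type libraries. The Ebf1-KO libraries gave 2.75 and 2.97, those given the Ebf1 vector 1.06 and 1.63, and those given the Pax5 vector 41.1 and 47.9 (3.96 ± 0.97 against Ebf1-KO, adjusted p = 0.0352, edgeR). The libraries of Ebf1-KO with Pax5 stood above all others, and are the same libraries in which Irf8 and Bcl6 were highest. Of 4 tested genes that BCL6 and BACH2 repress, Cdkn1a, a cell cycle inhibitor, was higher in Ebf1-KO (1.23 ± 0.33, adjusted p = 0.0204) and in Pax5-KO (1.57 ± 0.34, adjusted p = 0.0055), and the other 3 did not pass. Among all genes 8.02% and 8.65% were higher in these groups. Prdm1, the plasma cell regulator, lay between 0 and 1.85 CPM in all 14 libraries. Jchain, another plasma cell marker, was not low: its 2 Pax5-KO libraries read 1203 and 1488 CPM and its Ebf1-KO libraries 223 and 216, against 7.67 and 11.2 for wild type.

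Of 19 tested paralogs and partners, 2 were higher and 3 lower in Ebf1-KO, and 3 higher and 2 lower in Pax5-KO, with medians of -0.23 and -0.0044. Among all tested genes, Ebf1-KO had 8.02% higher and 6.65% lower, while Pax5-KO had 8.65% higher and 5% lower. Pou2f2 codes for OCT2, an octamer factor that OCA-B binds. It read 85.1 and 142 CPM in wild type and 16.3 and 25.2 in Ebf1-KO (-2.45 ± 0.36, adjusted p = 0.000196). In Ebf1-KO cells Pou2f2 rose with Ebf1 (1.43 ± 0.35, adjusted p = 0.0365) and with Pax5 (1.99 ± 0.35, adjusted p = 0.00419, edgeR). In Pax5-KO cells Runx2 fell by 0.96 with Ebf1 (SE 0.19, adjusted p = 0.0119) and by 1.61 with Pax5 (SE 0.19, adjusted p = 0.000133), and Runx3 by 0.99 and 1.42 (adjusted p = 0.0134 and 0.000725, edgeR).

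Of 20 other factors of early B cells 11 were lower and 1 higher in Ebf1-KO, and likewise in Pax5-KO. The Ebf1 vector raised 6 and lowered 1 of them in Ebf1-KO and raised 3 in Pax5-KO, and the Pax5 vector raised 9 and 8, with Ebf1 and Pax5 themselves in the list. Of all genes, 6.65% and 5% were lower in the deficient groups, the Ebf1 vector raised 2.21% and 1.75%, and the Pax5 vector raised 3.15% and 1.64%. Lef1, an effector of WNT signalling, had the largest fall among them in Ebf1-KO (-8.02 ± 0.40).

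Across the 14 libraries the log2 CPM of Foxo1 and Pou2af1 had a Pearson r of 0.94, that of Irf4 and Bach2 0.92 and that of Ikzf3 and Bach2 0.859, while Ikzf1 and Pou2af1 had -0.799. These are descriptions over libraries that share groups, and most of the spread lies between the groups. Outside the 10, the genes most like Pou2af1 were Bst1 (r = 0.984) and Cplx2 (0.977), those most like Foxo1 were Mreg (0.974) and Cd79b (0.968), and those most like Bach2 were Chst3 (0.972) and Cdk13 (0.953). For Ikzf1 they were Elf1 (0.951) and Ctsa (0.938), for Ikzf3 Rasgrp1 (0.939) and Fgd6 (0.933), for Spib Map3k1 (0.93) and Cxcr4 (0.919), and for Irf4 Bcl2l1 (0.947) and Edaradd (0.945). For Irf8 they were Abcb4 (0.938) and Pkd1l2 (0.901), for Bcl6 Rgag4 (0.946) and Sh3bp2 (0.934), and for Runx1 Pink1 (0.89).

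EBF1 peaks of the 230-238 line were counted inside each gene and within 50 kb of its ends, and are a description of a transformed line set beside RNA from primary cultures. All 10 genes had at least 1 such peak, 47 in all, where 61.4% of all genes have one. Of the 47, 18 lay inside the genes, 32 had a findPeaks score at or above the median of the list, which is 41, and 6 had a score of at least 125, the upper decile of the list. Ikzf1, Ikzf3, Spib and Irf8 had 7 each, Foxo1 and Bach2 5, Irf4 and Runx1 3, Pou2af1 2 and Bcl6 1. Longer genes have wider windows, and the spans run from 6077 bases for Spib to 168674 for Bach2. By nearest gene start at any distance, Ikzf1 and Spib had 1 peak each, Ikzf3 and Pou2af1 2 and Irf4 3. Bach2 and Bcl6 had 7 each by that rule, Irf8 9, Runx1 12 and Foxo1 14.

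The strongest peak lay beyond the end of Ikzf1 (chr11:11809033-11809353, score 265, rank 124, 60.3-fold over control), 123.3 kb from its start, and the nearest start there is that of Fignl1. Foxo1 had peaks of score 168 (chr3:52392549-52392869, rank 801) and 112 at 124.4 and 127.4 kb from its start, past its end, and weaker ones of 53 and 42 inside the gene at 14.7 and 79.9 kb. Spib lies among close neighbours, and its peaks of score 156 and 127, at 15.9 kb upstream and 6.4 kb downstream of its start, are nearest to the starts of Pold1 and Mybpc2. Irf8 had a peak of score 156 at 38.6 kb upstream, nearest to Cox4i1, and 2 inside the gene, of 55 and 79. Runx1 had peaks of score 150 and 96 side by side inside the gene, at 76.3 and 75.4 kb.

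Ikzf3 had 2 peaks near its start, of score 86 at 3.3 kb and 65 at 8.3 kb inside the gene, and one of 117 past its end. Irf4 had one of score 59 at 2.1 kb inside the gene and one of 83 at 64.4 kb. Bach2 had its strongest, of score 90, at 26.0 kb upstream, and the single peak of Bcl6, of score 49, lay 27.6 kb upstream. A second RefSeq start of Runx1, upstream of the gene model in the count table, overlaps a peak of score 29. Peaks were given to genes by distance alone, so a peak may act on another gene.

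**Figure D4:**
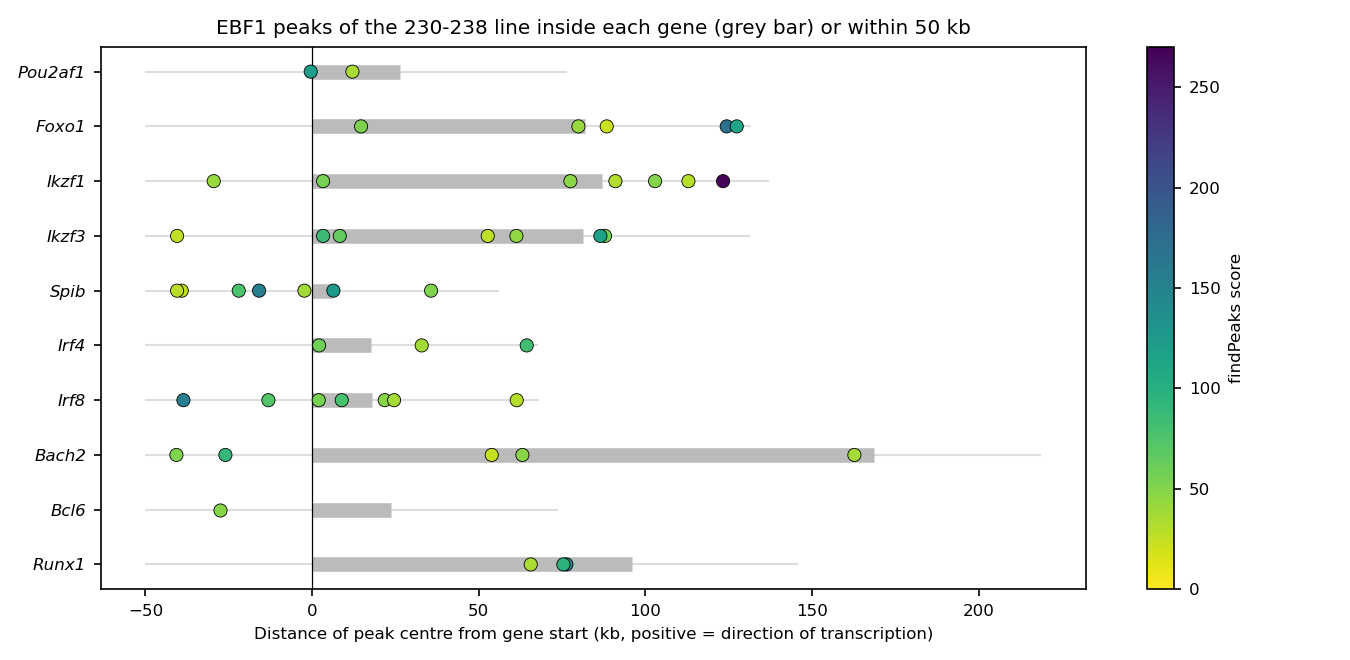
EBF1 peaks of the 230-238 line (points, coloured by findPeaks score) by distance of the peak centre from the gene start in kb, positive in the direction of transcription, with grey bars for the gene and thin lines for the 50 kb on either side. Starts are those of the gene models in the count table. The only point at such a start is that of Pou2af1 at -0.4 kb, and the highest score, 265, lies past the end of Ikzf1.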

How the data were processed

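RNA was measured in 14 libraries and EBF1 binding in 2 immunoprecipitated samples with an input. Whole-number exon counts per gene were deposited without normalization, made with HOMER per the file headers, with the length of each transcript beside them. The peak list holds a normalized tag count, which is a deposited signal, a findPeaks score by the authors and a fold over control, a ratio that the authors computed, with 1 list for all samples. The submitters' processing notes name STAR 2.6.0b-1, HOMER 4.8 and Bowtie2 2.3.4.2 and 2.3.5, on mm10, with no roles. Columns were matched to samples by name, with 0 unused. One Pax5-KO column has no number and was called replicate 1.

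Counts were tested with edgeR 4.0.16 (R 4.3.3): TMM scaling, filterByExpr, 1 quasi-likelihood fit over 7 groups, 14550 of 24506 genes, adjusted p under 0.05. Standard errors are the log2 fold change over the root of F. log2 CPM for correlations used a prior count of 2. DESeq2 1.42.0, RLE scaling, no filter, a replicate block and leaving out each library were tried. The test was checked on simulated data for Ebf1 in Ebf1-KO (14185 genes): it called 54 of 100 genes with a change of 2 log2 units, 17 of 100 with a change of 1 and 4 of 13985 without one. The text names all 10 factors, up to 3 called genes with the largest change from each list in a comparison, genes a result turns on, and the 2 genes with the highest r for each factor. Some items that this rule names are not reported here. The members and lists were chosen with earlier results of these data known. Promoters and motifs came from RefSeq windows of GRCm38.p6, found for 9 of the 10 genes. H3K4me3 contact profiles were not used here.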

Additional observations from a re-analysis of the deposited data

Results flagged for a closer look

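For 4 responses of the factors, a test of the difference between the backgrounds itself passed (edgeR, adjusted p under 0.05). The log2 fold change with the Ebf1 vector was lower in Pax5-KO than in Ebf1-KO cells for Pou2af1 and Foxo1. The differences were -7.52 ± 0.52 (SE, adjusted p = 1.3e-06) and -2.18 ± 0.24 (adjusted p = 0.000168). In CPM the rise of both genes was larger in Pax5-KO. The log2 fold change with the Pax5 vector was lower in Pax5-KO than in Ebf1-KO cells for Spib, which did not pass in Pax5-KO (0.15 ± 0.22, adjusted p = 0.872), by -1.93 ± 0.32 (adjusted p = 0.0043), and for Foxo1, by -1.60 ± 0.24 (adjusted p = 0.0021). The starting levels with the empty vector differed between the backgrounds for Pou2af1 and Foxo1, while those of Spib did not pass (0.17 ± 0.22, adjusted p = 0.881). The Pou2af1 value rests on 3 reads in each Ebf1-KO library with the empty vector and depends on the prior count.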

How the results depend on the processing

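Over 1120 values of the 10 factors under other settings, 1006 kept their direction and side of the threshold, 37 lost a call, 50 gained one, 26 moved and 1 reversed, and 50 of 65 calls held in every setting run. Irf4 with Ebf1 in Pax5-KO reversed, to -0.81 without Pax5-KO with Ebf1 replicate 2, which leaves the library that stood apart, and was 0.52 without that library; the cause was not tested in any of these changes. Without the filter on low counts, genes called numbered 711 (432 with it) for Ebf1 in Ebf1-KO, 1002 (594) for Pax5 in Ebf1-KO, 1230 (524) for Ebf1 in Pax5-KO, 1043 (587) for Pax5 in Pax5-KO, 978 (596) for Pax5-KO against Ebf1-KO, 1604 (1038) for Pax5-KO with Pax5 against wild type, 269 (89) and 940 (460) for the Ebf1 and Pax5 interactions and 1732 (992) for Ebf1 against Pax5 in Pax5-KO, and the Ebf1 interaction held 4 of the 10 factors. DESeq2 gave 707, 1199, 1506, 1109, 999, 1741, 224, 1147 and 2023 for the same comparisons in that order, 2308 (1484) for Ebf1 against Pax5 in Ebf1-KO, and 5 of the 10 factors each for Ebf1 in Pax5-KO and the Ebf1 interaction.

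Replicate numbers were not shown to pair all the samples. Deviations of same-numbered libraries from their group means had correlations from -0.0586 to 0.0126 in the 6 pairs of groups with wild type, and from 0.0764 to 0.236 in the 15 pairs of deficient groups, 13 of them over 0.1. With the number as a replicate block, 916 genes were called for Pax5 in Ebf1-KO, 821 for Ebf1 in Pax5-KO, with 5 of the 10 factors, and 737 for the Pax5 interaction. The run tag in the column names follows the replicate number, and the labels do not say what it marks.

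Leaving out 1 library at a time gave these ranges of genes called: 1296 to 1604 (2134 with all) for Ebf1-KO and 1012 to 1614 (1986) for Pax5-KO against wild type, 879 to 1218 (1624) for Ebf1-KO with Ebf1 and 433 to 749 for Pax5-KO with Pax5 against wild type, 204 to 258 for Ebf1 and 159 to 357 for Pax5 in Ebf1-KO, 125 to 2228 for Ebf1 and 222 to 395 for Pax5 in Pax5-KO, and 303 to 438 for Pax5-KO against Ebf1-KO. It gave 48 to 685 and 133 to 342 for the Ebf1 and Pax5 interactions, and 635 to 939 and 333 to 2644 for Ebf1 against Pax5 in Ebf1-KO and Pax5-KO. The factors called ranged from 2 to 3 for Ebf1 in Ebf1-KO, 1 to 6 for Ebf1 in Pax5-KO, 2 to 4 for the Ebf1 interaction, and 5 to 7 and 3 to 6 for Ebf1 against Pax5 in Ebf1-KO and Pax5-KO. Where this leaves a group with 1 library, that library is assumed to vary like the others. Within 10 kb of the genes 27 EBF1 peaks remained of 47. Naming genes from the peak list itself was not run, since the list names none; the nearest gene start was used in its place, chosen after seeing the data.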
